A study of Mus musculus with 6 samples.

Results

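The thioredoxin-interacting protein gene Txnip, its α-arrestin relatives Arrdc1, Arrdc2, Arrdc3 and Arrdc4, and the glucose-sensing transcription factor genes Mlx, Mlxip and Mlxipl were followed in mouse pancreatic islets with and without Sel1L in β cells. The 8 genes were chosen by name, as probe sets annotated with 1 of these symbols alone, and each had 1 such probe set among 22180 genes. Txnip was already known to be higher in the Sel1L-deficient arrays of this series when the genes were chosen, so the genotype differences of the 8 genes are given as a description. The calls of the fit over all genes are counted for them beside the share over all genes, and again under other settings of the fit. These counts support nothing here.

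Expression was measured on Affymetrix arrays, 3 per genotype, in islets from mice aged 5 weeks on the C57BL/6J background. Wildtype islets came from Sel1L f/f littermates, which carry floxed Sel1L alleles and no Cre. Sel1L-deficient islets came from Sel1L f/f mice that carried Ins1Cre, a Cre inserted at the insulin gene Ins1, so deletion is directed to β cells while the other cells of the islet keep the gene. Because only the Sel1L-deficient mice carried Cre, effects of the Cre insertion and of Sel1L loss cannot be told apart. The islets were digested with Liberase, picked by hand and cultured overnight in RPMI medium before RNA was extracted. The number of animals behind an array is not given in the labels, so the errors and p-values reflect the variation among these arrays, part of which may be technical. Sel1l, the gene targeted, read 8.46, 8.56 and 8.76 on the log2 scale in wildtype and 7.73, 7.65 and 7.68 in Sel1L-deficient islets (difference -0.90 ± 0.11 SE; limma, Benjamini-Hochberg adjusted p = 0.0312). This call was lost when any 1 array was left out, with an adjusted p of 0.0829 to 0.141. All samples are labelled female, but replicate 3 of each genotype had Xist, the RNA of the inactive X chromosome, at 2.93 and 3.08 against 9.93 or more on the other 4 arrays, and carried Y-linked transcripts. On the other 4 arrays Sel1l differed by -0.82 (limma adjusted p = 0.196), and values on these arrays are given for the 8 genes, for Slc2a2 and for some of the list members named.

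Txnip encodes an arrestin-fold protein that binds and inhibits thioredoxin and lowers glucose uptake by promoting internalisation of glucose transporters. In β cells it is strongly induced by glucose and is linked to β-cell death. Its induction runs through the Mlx factors: ChREBP, encoded by Mlxipl, or MondoA, encoded by Mlxip, pairs with Mlx and binds carbohydrate response elements, which consist of a pair of E-box-like sites separated by 5 bases. ER stress is a second known route to Txnip.

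The promoters are shown because Txnip and Arrdc4 are textbook targets of this element. RefSeq sequences of build GRCm38.p6 were found for 8 of 8 genes, with 11 start sites in all. The 250 bases before the start are printed for Txnip, Arrdc4 and the upstream start of Mlxipl, 5′ to 3′ in the direction of the gene, with matches to CACGTG and both ends of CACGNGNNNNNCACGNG in capitals.
Txnip, chr3:96557707-96557956, plus strand: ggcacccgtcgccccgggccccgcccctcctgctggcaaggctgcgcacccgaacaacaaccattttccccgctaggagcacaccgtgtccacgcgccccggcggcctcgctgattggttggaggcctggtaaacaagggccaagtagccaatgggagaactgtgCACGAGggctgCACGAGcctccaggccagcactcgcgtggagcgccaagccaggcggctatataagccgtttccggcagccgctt
Arrdc4, chr7:68749239-68749488, minus strand: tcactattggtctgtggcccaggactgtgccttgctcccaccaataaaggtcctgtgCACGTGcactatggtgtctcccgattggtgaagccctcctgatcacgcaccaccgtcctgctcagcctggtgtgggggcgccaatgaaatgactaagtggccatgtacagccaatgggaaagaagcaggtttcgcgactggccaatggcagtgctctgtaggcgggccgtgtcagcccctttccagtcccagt
Mlxipl, chr5:135089640-135089889, plus strand: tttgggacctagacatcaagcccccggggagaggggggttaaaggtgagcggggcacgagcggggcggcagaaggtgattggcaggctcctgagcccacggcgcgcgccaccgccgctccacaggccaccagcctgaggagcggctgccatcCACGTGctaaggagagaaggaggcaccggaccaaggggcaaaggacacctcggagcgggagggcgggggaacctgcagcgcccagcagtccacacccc

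Txnip held the paired site, read as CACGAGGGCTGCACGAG, from 85 to 69 bases before its start. It was the only 1 of the 8 genes with it, and 15 of 32851 promoter windows of the same length (0.0457%) held it on either strand. This spelling was chosen with the Txnip promoter in view. A single E-box, CACGTG, whose letters read the same on both strands, was found in 3 of the 8 genes. It lay 193 bases before the start of Arrdc4, 98 before the upstream start of Mlxipl and 40 before that of Mlx, counted to its first base, and 6.02% of all windows held it. The starts of Mlxipl lie 17.0 kb apart, and the downstream one had no E-box in its window. CCAAT, searched on both strands, was found in 7 of the 8 genes and in 33.8% of all windows, with 6 matches for Arrdc4 and 2 for Txnip. None of the CCAAT matches overlapped the other motifs. These are matches of letters and not measured binding sites.

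**Figure D1:**
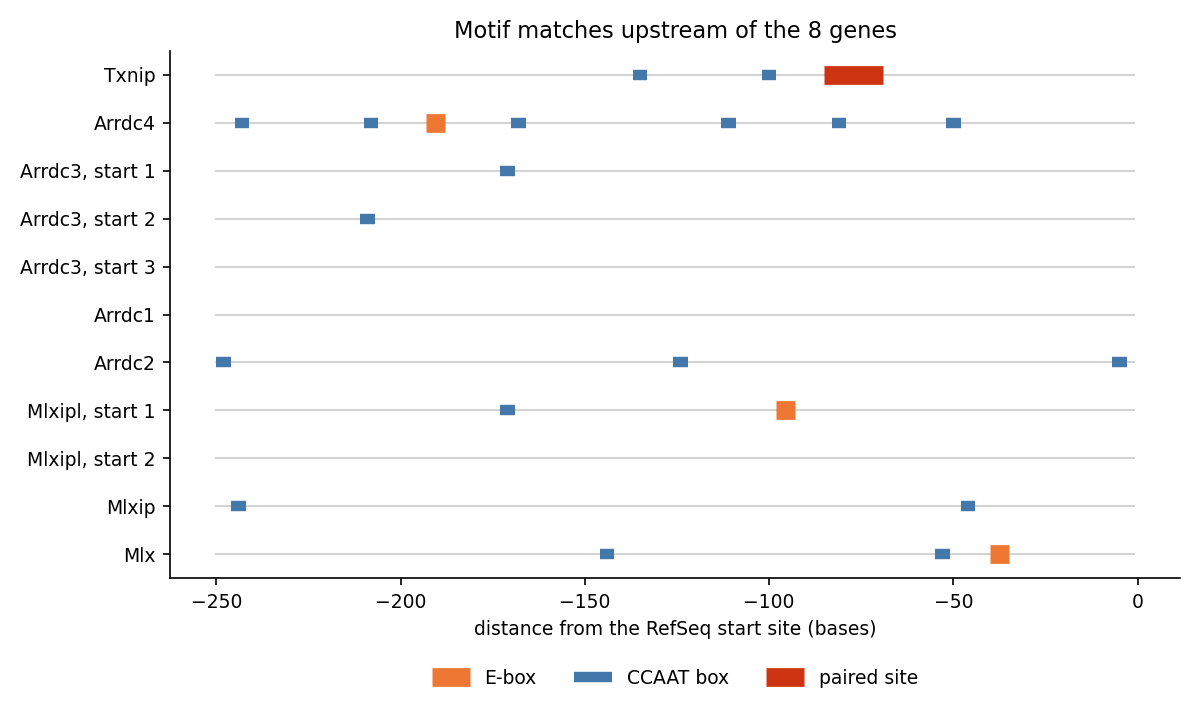
Motif matches in the 250 bases before each RefSeq start of the 8 genes; the x axis is the distance from the start in bases, each grey line is 1 start, and coloured blocks are the paired site, the E-box and the CCAAT box. The paired site appears upstream of Txnip, and E-boxes upstream of Arrdc4, Mlx and the upstream start of Mlxipl.

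Of the α-arrestins, Txnip, Arrdc4 and Arrdc3 had higher means in Sel1L-deficient islets, and Arrdc1 and Arrdc2 had lower means. The mean of Txnip was 1.84-fold higher, that of Arrdc4 1.60-fold and that of Arrdc3 1.18-fold. The limma confidence interval of the log2 difference covered both signs for Arrdc3 (-0.03 to 0.50), Arrdc2 (-0.69 to 0.04) and Arrdc1 (-0.41 to 0.21). Of the Mlx factors, Mlxipl differed by 0.04 on the log2 scale, Mlxip by -0.09 and Mlx by -0.24. The values of all 3 Mlx factors overlapped between genotypes, and those of Txnip did not.

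Txnip read 9.47, 9.49 and 9.23 in wildtype replicates 1, 2 and 3 and 10.20, 10.46 and 10.18 in the Sel1L-deficient replicates in log2 units. The lowest Sel1L-deficient array stood 0.69 above the highest wildtype array, against a spread of 0.26 among the wildtype and 0.28 among the Sel1L-deficient arrays. The means were 9.40 ± 0.14 and 10.28 ± 0.15 (SD, n = 3 each), a difference of 0.88 ± 0.13 (SE) with a 95% interval of 0.59 to 1.17. It ranked at position 32 from the top among the differences of all 22180 genes. On the 4 arrays with Xist the difference was 0.85. A further probe set is annotated with Txnip together with another gene, so its signal cannot be given to Txnip. It read 4.94, 4.98 and 4.65 in wildtype and 5.71, 5.64 and 5.80 in Sel1L-deficient islets, a difference of 0.86, and its groups did not overlap either.

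Arrdc4, like Txnip a target of the Mlx factors and a brake on glucose uptake, read 5.98, 6.33 and 5.88 in wildtype and 6.76, 6.82 and 6.63 in Sel1L-deficient islets. The groups did not overlap, with a gap of 0.30, which is less than the spread of 0.45 among the wildtype arrays. Wildtype replicate 2 was the array nearest to the Sel1L-deficient ones. The difference was 0.68 ± 0.14 (SE), with a 95% interval of 0.36 to 0.99, and 0.64 on the 4 arrays with Xist.

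Arrdc3, an adaptor for the trafficking and ubiquitination of β-adrenergic receptors, read 7.75, 7.77 and 7.52 in wildtype and 7.89, 8.03 and 7.83 in Sel1L-deficient islets. All Sel1L-deficient values lay above the wildtype ones, by a gap of 0.06. The difference was 0.24 ± 0.12 (SE), with a 95% interval of -0.03 to 0.50.

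Arrdc1, which recruits the ESCRT protein Tsg101 to form vesicles at the plasma membrane, read 4.56, 4.39 and 4.68 in wildtype and 4.23, 4.64 and 4.46 in Sel1L-deficient islets. The groups were interleaved, and the difference was -0.10 with a 95% interval of -0.41 to 0.21. Arrdc2, a less studied α-arrestin, read 4.78, 4.50 and 4.93 in wildtype and 4.52, 4.14 and 4.57 in Sel1L-deficient islets. Wildtype replicate 2 lay below 2 of the Sel1L-deficient arrays, so the groups overlapped, and the difference was -0.33 with an interval of -0.69 to 0.04.

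Mlxipl, which encodes ChREBP, read 9.01, 8.89 and 9.12 in wildtype and 9.02, 9.06 and 9.05 in Sel1L-deficient islets. The Sel1L-deficient values lay inside the wildtype range, and the difference of 0.04 ± 0.10 (SE) had a 95% interval of -0.20 to 0.27. The upstream start gives rise to a shorter isoform that ChREBP itself induces. The single probe set was not resolved by isoform here, so a shift between the starts was not measured. Mlxip, which encodes MondoA, read 7.18, 7.17 and 7.40 in wildtype and 7.23, 7.16 and 7.08 in Sel1L-deficient islets, a difference of -0.09 with an interval of -0.34 to 0.16. The highest of its values was wildtype replicate 3, and on the 4 arrays with Xist its difference was 0.017. Mlx, the common partner, read 7.10, 6.89 and 7.18 in wildtype and 6.86, 6.70 and 6.91 in Sel1L-deficient islets. Its groups overlapped at 1 point, with Sel1L-deficient replicate 3 just above wildtype replicate 2, and the difference was -0.24 with an interval of -0.51 to 0.04.

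**Figure D2:**
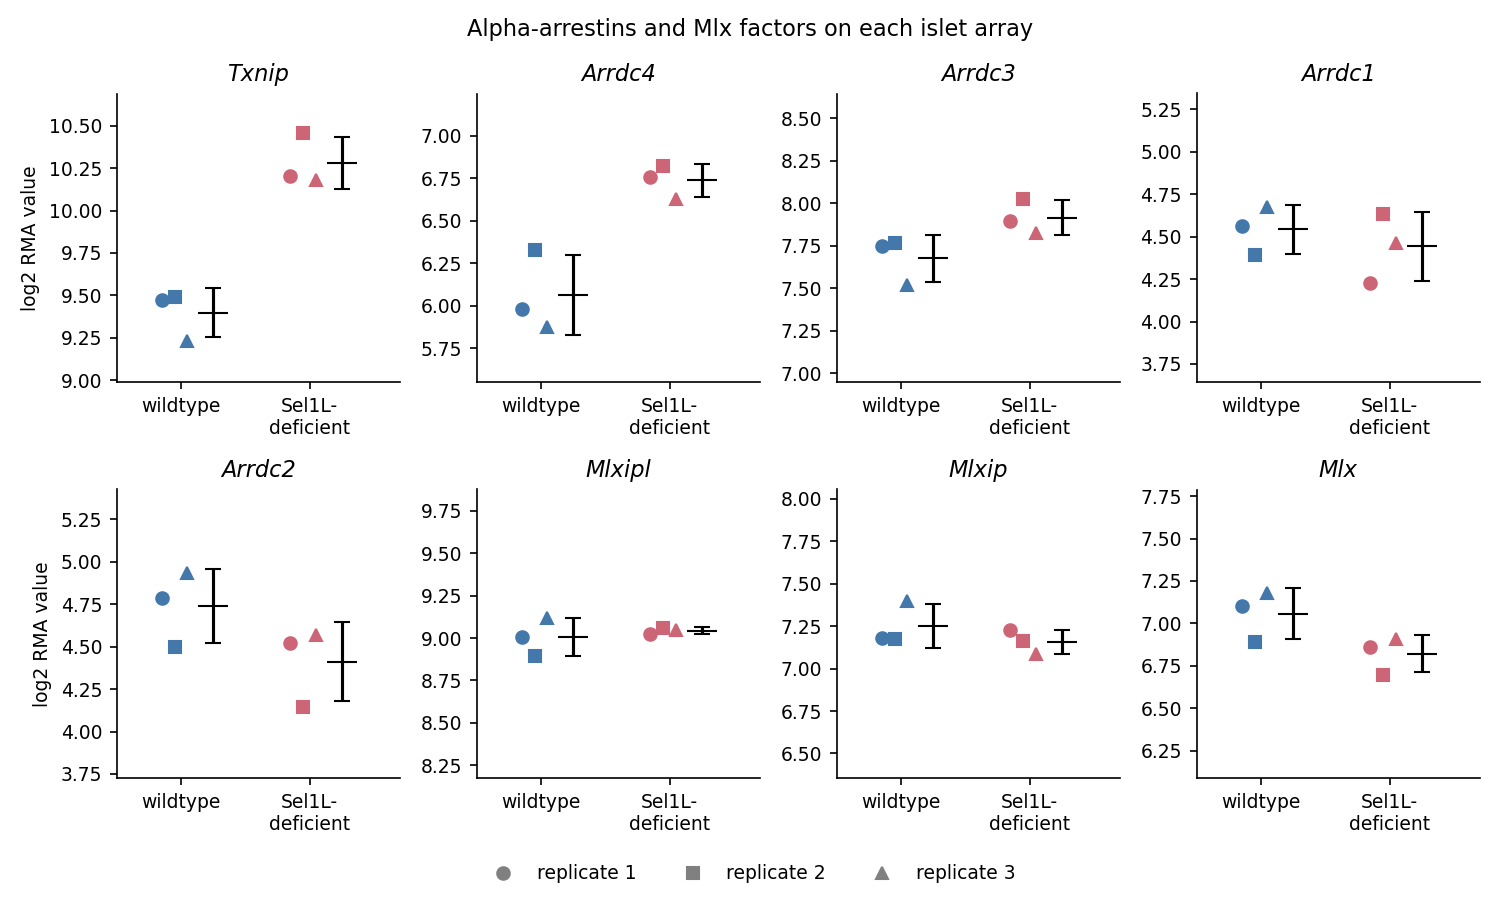
Log2 RMA value of each of the 8 genes on each array, with symbols for the replicate number; the black marks are the mean and SD of 3 arrays, and every panel spans the same height in log2 units. Txnip, Arrdc4 and Arrdc3 separate by genotype, and the other 5 genes overlap.

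Counted over the 8 genes, 3 did not overlap with the Sel1L-deficient arrays higher and 0 with them lower, while 5 overlapped. Over all genes 7.22% did not overlap on the higher side and 7.84% on the lower. The fit over all genes (limma, Benjamini-Hochberg adjusted p under 0.05) called 1 of the 8 higher, Txnip, and 0 lower, against 0.0902% and 0.153% of all genes. At an unadjusted p under 0.05 it had 2 of the 8, Txnip and Arrdc4, against 9.48% of all genes. Nothing is read from these counts, since the genes were chosen with this contrast known. Leaving out any 1 array left 0 of the 8 called, and limma's intensity trend and robust prior, used together, called 2, Txnip and Arrdc4. The median difference of the 8 was -0.03 against 0.00040 for all genes.

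The size of the difference moved little when 1 array was left out, from 0.79 without Sel1L-deficient replicate 2 to 0.93 without Sel1L-deficient replicate 3 for Txnip. For Arrdc4 the lowest was 0.58, with wildtype replicate 3 left out, and the highest 0.81, with wildtype replicate 2 left out. For Arrdc3 it was 0.16 without wildtype replicate 3, its lowest, and 0.28 at its highest. The differences of Mlx and Arrdc2 were below 0 in all 6 of these fits, and those of Mlxipl ran from -0.02 to 0.09. On the 4 arrays with Xist the differences were 0.20 for Arrdc3, -0.05 for Arrdc1, -0.31 for Arrdc2, -0.22 for Mlx and 0.09 for Mlxipl.

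**Figure D3:**
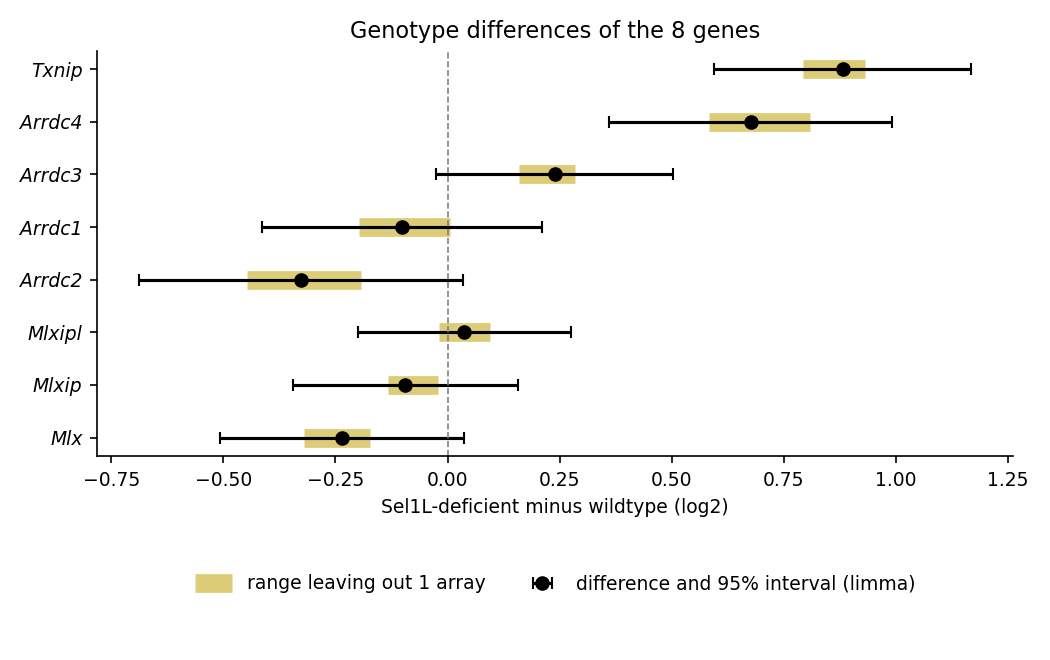
Sel1L-deficient minus wildtype difference of each gene in log2 units, with points and bars for the limma estimate and its 95% interval and shaded bands for the range when 1 array is left out. The intervals run from 0.59 to 1.17 for Txnip and from 0.36 to 0.99 for Arrdc4, and that of Arrdc3 from -0.03 to 0.50.

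Txnip, Arrdc3 and Arrdc4 also followed 1 order inside each genotype. Sel1L-deficient replicate 2 was highest, then replicates 1 and 3, followed by wildtype replicates 2, 1 and 3, and this order was the same in all 3 genes. It was shared by 50 of all 22180 genes (0.225%), and by 3.12% of the 1602 genes whose Sel1L-deficient arrays all lay higher. The order was taken from Txnip after its values were seen and rests in part on near ties, such as 9.47 and 9.49 in wildtype. The probe set annotated with Txnip and another gene had Sel1L-deficient replicate 3 highest (5.80) and replicate 2 lowest of the Sel1L-deficient arrays (5.64). Nothing is read from the shared order. The other 5 genes had other orders. Wildtype replicate 3, the lowest array for Txnip, Arrdc3 and Arrdc4, was the highest of all 6 arrays for Arrdc1, Arrdc2, Mlx, Mlxip and Mlxipl. Sel1L-deficient replicate 2, the highest for the first group, was the lowest of all for Arrdc2 and Mlx.

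The genes whose level across the 6 arrays was most like that of Txnip were found by the root mean square difference between mean-centred log2 values, among 11905 genes brighter than the array medians. They were Chd5, a chromatin remodeller, at 0.11, Fbp1, the gluconeogenic fructose bisphosphatase, at 0.12, Pcsk6, a proprotein convertase, at 0.12, the gene model Gm16892 at 0.13 and Neurog3, the transcription factor of endocrine progenitors, at 0.14. Their genotype differences ran from 0.70 for Gm16892 to 1.13 for Neurog3, which follows from the choice. With the 8 genes themselves in the ranking, Arrdc4 stood at position 7 of 11912 from Txnip, Arrdc3 at 417 and Mlxipl at 4040. In the other direction Txnip stood at position 27 from Arrdc4. The genotype difference is part of this distance, so these positions in part restate the differences given above, and nothing is read from them. The genes most like Arrdc4 were Egln3, an oxygen-sensing prolyl hydroxylase, Wdr49, Scarb1, a lipoprotein receptor, Slco1a6, an organic anion transporter, and again Fbp1, at 0.068 to 0.12. Fbp1 read 5.80, 6.12 and 5.90 in wildtype and 6.65, 6.88 and 6.74 in Sel1L-deficient islets and was the only gene named on both lists.

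**Figure D4:**
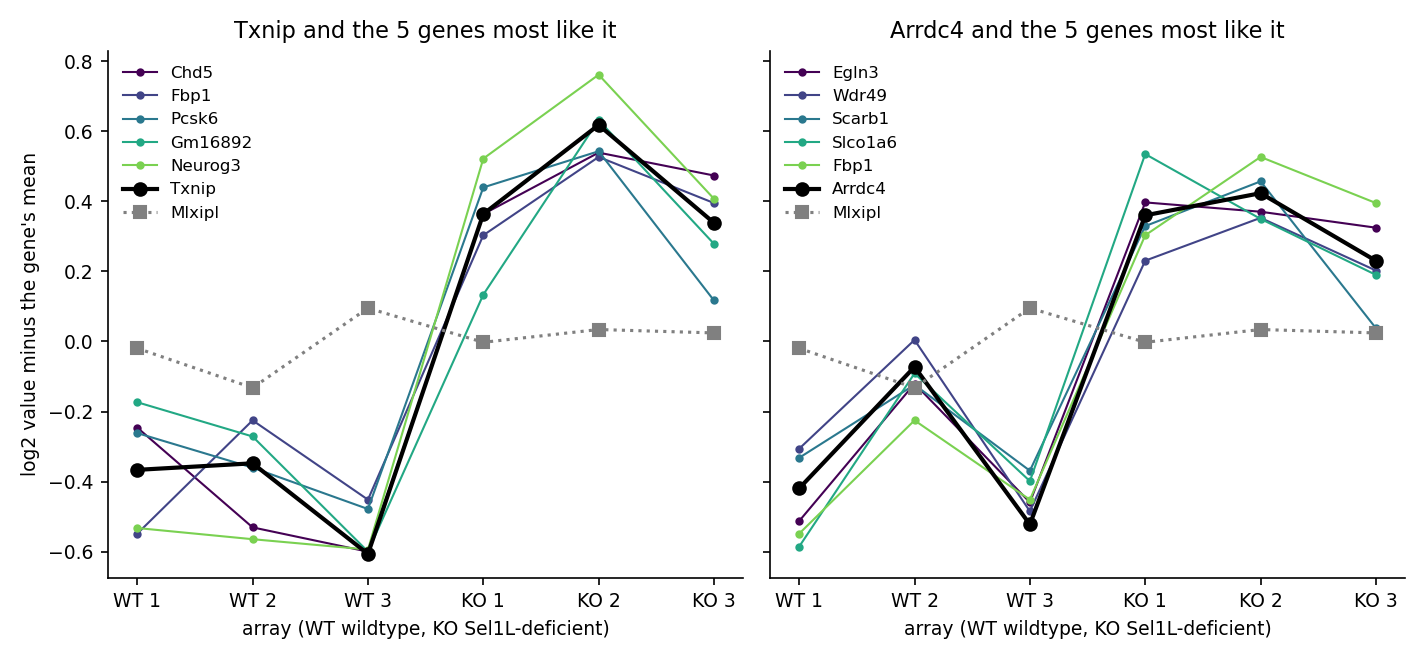
Log2 value minus the gene's own mean on each array for Txnip (left) and Arrdc4 (right) in black, the 5 genes most like each in colour and Mlxipl in grey; lines only join the points of a gene. Txnip, Arrdc4 and the coloured genes step up between genotypes, and Mlxipl stays within 0.23 over the wildtype arrays and 0.04 over the Sel1L-deficient arrays.

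Other known targets of the glucose response had differences of both signs. Of 23 measured genes of a list of glucose-responsive and ChREBP target genes, which left out Txnip and Arrdc4, 0 rose and 0 fell (limma, adjusted over all genes), and 11 had an unadjusted p under 0.05. The share of all genes under that limit was 9.48%, which is also the background for the counts at an unadjusted p in the lists that follow. On simulated data the fit recovered 12.6% of changes of 0.5 on the log2 scale. A count of 0 here and in those lists therefore does not show that the genes were unchanged. The 3 Sel1L-deficient arrays lay below the wildtype arrays in 8 of the 23 (34.8%, against 7.84% of all genes) and above them in 4 (17.4%, against 7.22%). The list median was -0.03. The 8 on the lower side were Scd1, Me1, Elovl6, Pgd, Fasn, Acaca, Acly and Thrsp, of which Thrsp had a mean below the array medians, and none passed the test (limma adjusted p = 0.26 to 0.612). Other lipid genes of the list overlapped between genotypes, among them Acacb with a difference of 0.08, Dgat2 with 0.20, Pnpla3 with 0.11 and Gpd1 with -0.12. When 1 array was left out these ran from 0.03 to 0.12, -0.07 to 0.44, -0.04 to 0.36 and -0.21 to -0.01. Acacb had a mean below the array medians, and Pnpla3 stood close to them, at 3.11 in wildtype and 3.22 in Sel1L-deficient islets. Scd1, the stearoyl-CoA desaturase, read 5.87, 6.29 and 5.76 in wildtype and 4.86, 5.64 and 5.62 in Sel1L-deficient islets (difference -0.60 ± 0.23 SE, adjusted p = 0.455). Without Sel1L-deficient replicate 1, its lowest array, the difference was -0.34. The malic enzyme gene Me1 differed by -0.47 ± 0.12 (adjusted p = 0.26) and the fatty acid synthase gene Fasn by -0.31 ± 0.10 (adjusted p = 0.386). On the higher side were Pdk1, a kinase that holds back pyruvate dehydrogenase, the Krüppel-like factors Klf11 and Klf10, and the metabolic hormone gene Fgf21, whose mean lay below the array medians. Pdk1 read 5.63, 5.65 and 5.37 in wildtype and 6.04, 6.17 and 6.06 in Sel1L-deficient islets (difference 0.54 ± 0.12, adjusted p = 0.181). With the mean of its probe sets in place of the brightest the difference was 0.26. Pklr, the pyruvate kinase gene in which the response element is classically studied, differed by 0.01 with a 95% interval of -0.25 to 0.26. Scd1 and Pdk1 were named by rule, as the 2 brighter members whose differences were largest with the brightest probe set, and the others are named after their values were seen.

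**Figure D5:**
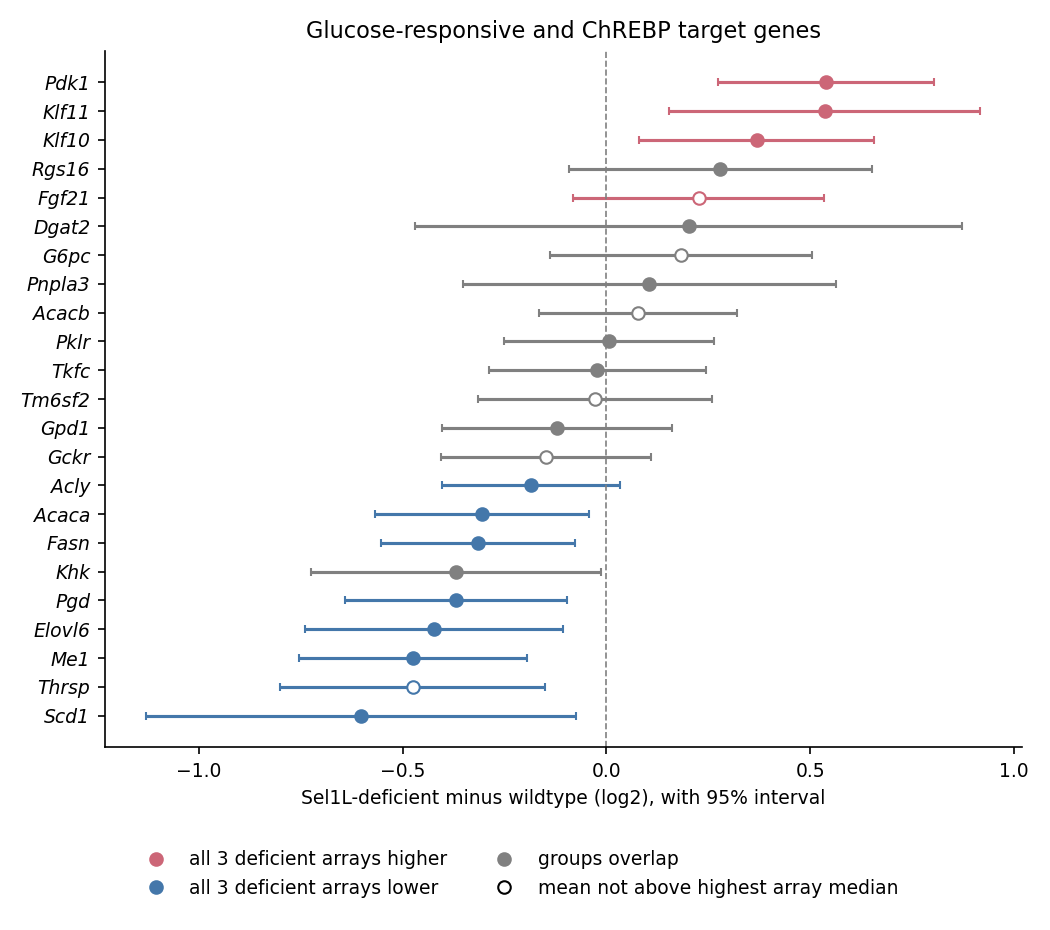
Sel1L-deficient minus wildtype difference of the 23 measured glucose-responsive and ChREBP target genes in log2 units, with 95% intervals from limma; colour shows whether the 3 arrays of a genotype all lay on 1 side, and open points are genes with a mean not above the highest array median. The 8 genes lower without overlap include Scd1 at -0.60 and Fasn at -0.31, and the 4 higher include Pdk1 at 0.54.

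Upstream of the Mlx factors, glucose enters β cells of the mouse through GLUT2, encoded by Slc2a2. Of 8 measured genes of glucose entry and phosphorylation, 0 rose, 1 fell and 7 did not pass, with 1 at an unadjusted p under 0.05. Slc2a2 fell 2.60-fold, from 10.47, 10.15 and 10.45 in wildtype to 9.05, 8.66 and 9.22 in Sel1L-deficient islets (difference -1.38 ± 0.16 SE; limma adjusted p = 0.0265). Its adjusted p was 0.0815 to 0.135 when any array but Sel1L-deficient replicate 3 was left out, and 0.0444 without that one. On the 4 arrays with Xist it differed by -1.45 (adjusted p = 0.152). Slc2a2 is also 1 of 9 measured β-cell markers, of which 0 had a difference above 0 and 4 fell (against 0.153% of all genes). The hexokinase gene Hk1 differed by -0.03 (-0.08 to 0.04 when 1 array was left out), and Slc2a1, the gene of GLUT1, by -0.24. Leaving out wildtype replicate 2 gave -0.42 for Slc2a1, the mean of probe sets gave -0.10, and the arrays with Xist gave -0.12. In the MYC, MAX and MLX network, the family of E-box factors around Mlx, 0 of 10 rose and 0 fell, with 2 at an unadjusted p under 0.05. Myc read 6.18, 5.92 and 6.44 in wildtype and 6.72, 6.73 and 6.40 in Sel1L-deficient islets, and its groups overlapped (difference 0.44, adjusted p = 0.428). On the arrays with Xist the Myc difference was 0.68. Mxd4, a repressor that pairs with Mlx or Max, differed by 0.26 with no overlap (adjusted p = 0.516).

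Thioredoxin, which Txnip binds, and its partner enzymes had 0 of 11 measured members that rose and 0 that fell, with 1 at an unadjusted p under 0.05. Of the 11, 4 lay lower without overlap (36.4%, against 7.84% of all genes) and 0 higher (against 7.22%), and the list median was -0.13. Srxn1, which reactivates peroxiredoxins, read 6.17, 6.29 and 6.38 in wildtype and 5.75, 5.85 and 5.65 in Sel1L-deficient islets (difference -0.53 ± 0.11 SE, limma adjusted p = 0.174). Txn1, thioredoxin itself, differed by -0.23 ± 0.10 (adjusted p = 0.545). The inflammasome, which Txnip is reported to activate through Nlrp3, had 0 of 7 members past the threshold in either direction and 0 at an unadjusted p under 0.05. Nlrp3 stood at 1.73 to 2.28 in wildtype and 1.91 to 2.32 in Sel1L-deficient islets, below the array medians. Whether these values lay above background was not assessed. Of the 3 brighter inflammasome members, Gsdmd and Il18 differed by -0.12 and -0.08. The third, Pycard, differed by -0.01 (-0.18 to 0.18 when 1 array was left out). Gsdmd was 0.031 without wildtype replicate 2, opposite in sign, -0.31 on the arrays with Xist and -0.03 with the mean of probe sets. Il18 ran from -0.19 to -0.02 when 1 array was left out, the latter without wildtype replicate 1.

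The ER stress route to Txnip runs through the sensors IRE1, encoded by Ern1, and PERK, encoded by Eif2ak3, and through Atf5. Of 7 measured genes 0 rose and 0 fell, with 1 at an unadjusted p under 0.05. Ern1 read 8.15, 8.31 and 8.46 in wildtype and 8.78, 8.82 and 8.56 in Sel1L-deficient islets, and the groups did not overlap (difference 0.42 ± 0.12 SE, limma adjusted p = 0.342). Besides Ern1, higher, Xbp1 did not overlap, with lower values in Sel1L-deficient islets (difference -0.11), so 1 of the 7 lay on each side (14.3%, against 7.22% of all genes higher and 7.84% lower). Ddit3, the CHOP gene, overlapped between the groups with a difference of 0.30. Its difference was 0.15 with wildtype replicate 2 left out, 0.49 with wildtype replicate 3 left out and 0.52 on the arrays with Xist. Atf5 differed by 0.04, with an interval of -0.36 to 0.44 and a range of -0.08 to 0.25 when 1 array was left out. Of 9 other regulators of Txnip, among them the FOXO factors and AMP kinase subunits, 0 passed in either direction and 0 had an unadjusted p under 0.05. Foxo1 differed by -0.16, or -0.06 with the mean of probe sets, and Prkaa2 by 0.22, or 0.11 without Sel1L-deficient replicate 1 and 0.36 on the arrays with Xist.

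The α-arrestins hand their cargo to ubiquitin ligases of the NEDD4 group, which they bind through their tails. Of 11 such ligases and adaptors 0 rose and 0 fell, with 1 at an unadjusted p under 0.05. Of the 11, 3 lay higher without overlap (27.3%, against 7.22% of all genes), Smurf1 at 0.26, Smurf2 at 0.15 and Nedd4l at 0.11, and 1 lower (9.09%, against 7.84%), the adaptor Ndfip2 at -0.25. The limma adjusted p was 0.545 for Smurf1 and 0.518 for Ndfip2. When 1 array was left out Smurf1 ran from 0.17 to 0.33, Smurf2 from 0.07 to 0.20 and Nedd4l from 0.07 to 0.16. Itch, a ligase for Txnip, differed by -0.01 (-0.09 to 0.06 when 1 array was left out) and Nedd4 by 0.08 (0.05 to 0.14). The ESCRT partners of Arrdc1 had 0 of 7 past the threshold in either direction and 2 at an unadjusted p under 0.05, Hgs with -0.30 and Pdcd6ip with -0.27. These 2 of the 7 lay lower without overlap (28.6%, against 7.84% of all genes), and 0 lay higher (against 7.22%). Among 8 other arrestin-fold genes 0 passed and 0 had an unadjusted p under 0.05. Vps26c and Vps26b, subunits of endosomal sorting complexes, differed by -0.19 and 0.17, and Vps26b by 0.07 without wildtype replicate 2 and 0.29 on the arrays with Xist. Of 5 measured partner and client genes 0 passed, with 1 at an unadjusted p under 0.05, Cops5, a subunit of the COP9 signalosome, at -0.35 (adjusted p = 0.47), or -0.22 without Sel1L-deficient replicate 1. Usp5, a deubiquitinase, differed by -0.20, or -0.11 without wildtype replicate 3 and -0.09 on the arrays with Xist. Cops5 and Usp5, 2 of the 5, lay lower without overlap (40.0%, against 7.84% of all genes), and 0 lay higher (against 7.22%).

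In whole islets, fewer cells of a type and less RNA per cell cannot be told apart. Of 12 endothelial markers 12 had a difference above 0 and 0 rose (limma, against 0.0902% of all genes). Their summed level on the log2 scale was 10.29 to 10.69 in wildtype and 10.85 to 11.04 in Sel1L-deficient islets. Of 10 mesenchymal markers 10 were above 0 and 0 rose by the same test, with sums of 8.60 to 9.08 in wildtype and 9.24 to 9.43 in Sel1L-deficient islets. Of 9 β-cell markers 0 were above 0, with a median difference of -0.66. Of the 9, 4 fell (limma, against 0.153% of all genes), among them Slc2a2. The summed level of the 9 was 13.52 to 13.72 in wildtype and 13.12 to 13.17 in Sel1L-deficient islets. Between genotypes the endothelial, mesenchymal, α-cell and PP-cell sums lay higher without overlap, as did the values of Txnip, Arrdc4 and Arrdc3. The β-cell sum lay lower without overlap. Among wildtype arrays the endothelial sum was highest on replicate 3 (10.69), where the 3 genes were lowest. Among Sel1L-deficient arrays it was lowest on replicate 2 (10.85), where they were highest. The mesenchymal sum was lowest on replicate 3 of each genotype, as were the 3 genes. The part of these sums in the differences was not tested. The 8 measured leukocyte markers overlapped, at 7.65 to 7.98 and 7.54 to 7.76. The 6 measured acinar markers were highest on the replicate 3 arrays, at 12.95 in wildtype and 12.83 in Sel1L-deficient islets, against 11.66 and 12.21 on the other wildtype and 10.93 and 11.42 on the other Sel1L-deficient arrays. These are also the arrays lowest in Txnip, Arrdc3 and Arrdc4 within each genotype, and the part of acinar RNA in that order was not tested. Duct and Schwann cell markers overlapped, as did δ-cell markers at 12.55 to 12.67 and 12.54 to 12.62. The sum of 3 measured α-cell markers was 13.21 to 13.25 in wildtype and 13.29 to 13.35 in Sel1L-deficient islets, and that of 2 PP-cell markers 13.04 to 13.18 and 13.23 to 13.44.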

How the data were processed

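RNA of 6 islet samples was hybridised to Affymetrix arrays, and the authors deposited 1 table of log2 values per probe set, made with RMA per the submitters' processing notes. RMA's version and filters, the log base and the array's genome build are not given in the sources used here. For this reason the log2 scale was taken from the values, which ran from 0.526 to 13.0 with array medians of 3.08 to 3.16. RMA corrects background, normalizes between arrays and can compress ratios of bright and dim probe sets. No detection call was used, and the number of arrays limits the precision.

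Of 41345 probe sets, 23521 had 1 gene symbol, 1814 had several and 16010 were unnamed here. The brightest probe set stood for a gene. Sel1L-deficient minus wildtype was fitted with limma 3.58.1 in R 4.3.3 over 22180 genes (two-sided, Benjamini-Hochberg, threshold 0.05), and the fit was tested on simulated data. Intervals are 95%.

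The 8 genes, the 11 pathway lists (106 of 121 members measured) and the 10 marker lists were chosen with earlier results of these data known. The text names the 8 genes, the called members of each list or else the 2 brighter members that differed most, and the 5 genes most like Txnip and Arrdc4. Further list members were named after their values were seen. Alternatives were other normalizations, filters, priors, probe set rules, a replicate block, a covariate for sex-linked transcripts and leaving out arrays. Promoter sequences are from RefSeq.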

Additional observations from a re-analysis of the deposited data

How the results depend on the processing

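The differences of the 8 genes kept within 1 SD of their reported values in all 14 alternatives, except Mlxip, which was 0.017 on the 4 arrays with Xist. Leaving out 1 array in turn gave 0.79 to 0.93 for Txnip, 0.58 to 0.81 for Arrdc4, 0.16 to 0.28 for Arrdc3, -0.20 to 0.0056 for Arrdc1, -0.45 to -0.19 for Arrdc2, -0.32 to -0.17 for Mlx, -0.13 to -0.02 for Mlxip and -0.02 to 0.09 for Mlxipl. Calls depended more on the processing. Over all genes 20 rose and 34 fell, and leaving out 1 array gave 1 to 13 that rose and 3 to 16 that fell. The trend and robust prior gave 44 and 89, and the 4 arrays with Xist 1 and 0, where fewer samples remained. Of the 8 genes the trend and robust prior called 2, and the 4 arrays with Xist called 0, as did leaving out any 1 array. Of the genes of glucose entry, 0 to 1 fell when 1 array was left out and 0 on the 4 arrays with Xist. Leaving out 1 array moved Gsdmd from -0.24 to 0.031, the latter without wildtype replicate 2 and opposite in sign to its main value, and the cause was not tested.

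The groups share replicate numbers 1 to 3, but over all genes the deviations of same-numbered arrays correlated at 0.105, 0.072 and 0.21, so the numbers were not taken to pair the samples. Over the 11913 brighter genes the values were 0.117, 0.126 and 0.344. Over all genes every array correlated best with its own number, a hint from the data and not from the design. With the replicate number as a block 14 genes rose and 22 fell, 0 of the 8 genes were called, and Sel1l had an adjusted p of 0.0559.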
